A study of Mus musculus with 9 samples.

Results

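Cytochrome P450 genes were compared in the livers of 3 groups of mice. The genes were taken as the probe sets whose only symbol in the platform annotation is Cyp followed by a number, 1 letter and a number, without the bile acid genes Cyp7a1, Cyp7b1, Cyp8b1 and Cyp27a1. Where a gene had several probe sets the brightest would have been used, but each had only 1. This gave 77 genes in 31 subfamilies, of 19938 genes named by a single symbol. The table held 35556 probe sets, of which 28939 were tested. All 77 were tested, with no filter on low values.

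RNA of whole liver was measured on 9 single-colour Affymetrix gene arrays, with 3 per group. All mice were males of the C57/BL6 background, aged 8 to 9 weeks, on standard chow. The first group was wild type. The second lacked NEMO, the subunit encoded by Ikbkg that the IκB kinase needs to activate NF-κB, in hepatocytes only (NEMOΔhepa, here the NEMO knockout). The third is labelled as carrying the same hepatocyte deletion together with constitutive loss of p21 (encoded by Cdkn1a) in all cells. The driver of the hepatocyte deletion is not given in the sources used here, other liver cells keep NEMO, and no group lacked p21 alone. The labels tell the animals apart only by identifiers, so p-values measure the spread between these samples. In whole tissue, fewer cells of a type and less RNA per cell cannot be told apart.

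P450 enzymes are haem proteins, mostly of the endoplasmic reticulum, that insert 1 oxygen atom into a substrate with electrons passed on by P450 reductase or cytochrome b5. Enzymes of the Cyp1, Cyp2 and Cyp3 families in hepatocytes oxidise drugs, toxins, steroids and arachidonic acid, and those of the Cyp4 family oxidise the ends of fatty acid and eicosanoid chains. Their genes lie in clusters of close relatives, and many are controlled by nuclear receptors that sense foreign compounds, by HNF4α, and by the male or female pattern of growth hormone.

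Array medians lay between 6.47 and 6.58 log2, and arrays correlated at r = 0.994 to 0.996 within groups. Ikbkg fell by 0.52 log2 in the NEMO knockout (limma adjusted p = 0.0184; 0.0524 to 0.0729 on leaving out replicate 2 or 3 of wild type or 1 or 3 of the NEMO knockout) and by 0.60 in the third group (adjusted p = 0.00835). The probe set shared by Cdkn1a and 4930567H12Rik was not reduced in the third group, with means of 8.67, 10.10 and 10.78 log2 in the 3 groups in order. Against wild type it was called higher in the third group, at 2.11 (limma adjusted p = 0.0194). In the NEMO knockout it was at 1.43 and not called (adjusted p = 0.101). The third group is therefore called the labelled double knockout. Where this probe set lies relative to the deleted part was not analysed here. Of 6 measured hepatocyte markers none was called in either knockout group, and their mean level ran from 13.30 to 13.47 log2 over all arrays. The mean of the macrophage markers was 8.08 to 8.31 in wild type and 9.32 to 9.46 in the knockout groups, with 6 of 8 called higher in each. That of the stellate cell and fibroblast markers was 8.36 to 8.51 in wild type and 9.65 to 10.01 in the knockout groups, with 7 of 8 called higher in each. Of 5 T and NK cell markers 3 were called higher in the NEMO knockout and 0 in the third group, 1 of 6 cholangiocyte markers was called higher in each, and none of 5 endothelial markers was called. The part of these cells in the results below was not tested.

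P450 genes fell more often than they rose in the NEMO knockout. At a limma adjusted p under 0.05 over all probe sets tested, 12 of 77 were called lower (15.6%) and 4 higher (5.19%), where 2.02% of all probe sets tested were called lower and 5.66% higher (7.68% in either direction). The share called lower was thus above that of all probe sets, and the share called higher was near it. The median difference of the 77 genes was -0.09 log2, and that of all probe sets was -0.04. In the labelled double knockout 12 genes were called lower and 4 higher against the same wild type arrays, where 3.51% of all probe sets were called lower and 5.81% higher (9.32% in either direction). Its median difference was -0.09, beside -0.03 for all probe sets. Without wild type replicate 1 the count lower in the NEMO knockout was 7, and without NEMO knockout replicate 2 it was 6. Without labelled double knockout replicate 2, 7 genes were called higher in that group. With each array centred on its median, which moved the share of higher calls among all calls from 73.7% to 52.7% for the NEMO knockout and from 62.3% to 44.1% for the labelled double knockout, the counts lower were 20 in NEMO knockout livers and 18 in the labelled double knockout. Under that scaling 4.04% and 5.74% of all probe sets were called lower.

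**Figure D1:**
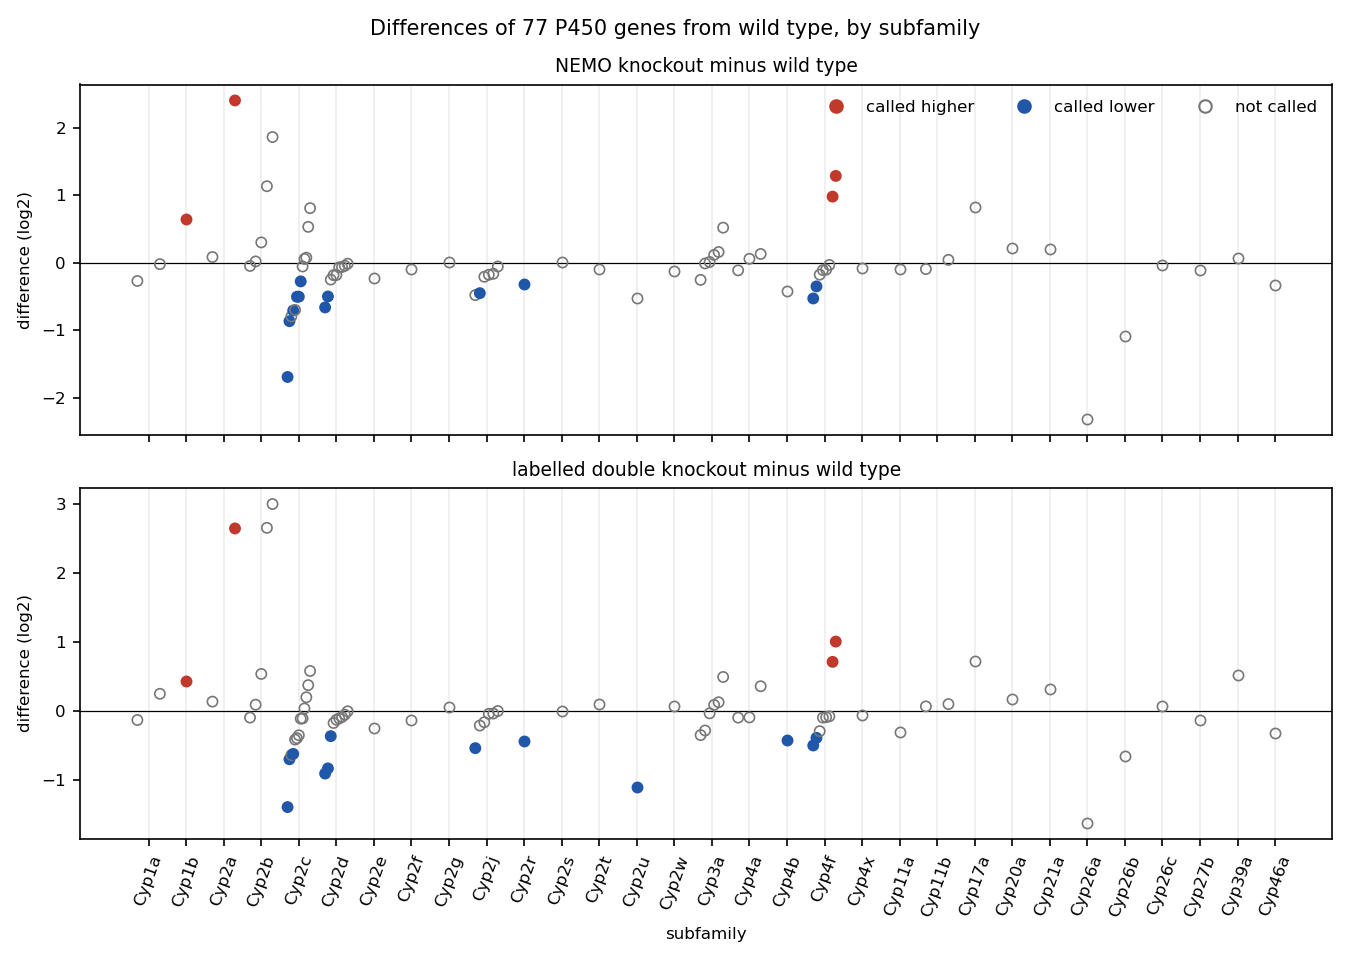
Difference from wild type (log2, vertical axis) of each of 77 P450 genes, grouped by subfamily, for the NEMO knockout (upper panel) and the labelled double knockout (lower panel); 1 circle per gene, red where called higher, blue where called lower, open where not called. In the NEMO knockout the lower calls lie mostly among the Cyp2c, Cyp2d and Cyp4f genes, with Cyp2c37 lowest at -1.69, and Cyp2a22 is the highest call at 2.40.

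The Cyp2c subfamily held 6 of the 12 genes lower in the NEMO knockout. Its enzymes oxidise drugs and turn arachidonic acid into epoxides and hydroxy acids. Of 13 measured genes, 6 fell, none rose, and the median difference was -0.50 log2, with a range of -1.69 to 0.81. In the labelled double knockout 3 fell, none rose, and the median was -0.35. The comparisons with wild type share the wild type arrays, so they are given side by side and not as independent.

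Cyp2c37, an arachidonic acid hydroxylase, was 11.89, 11.73 and 11.80 log2 in wild type, 10.67, 9.82 and 9.86 in NEMO knockout livers, and 10.45, 10.70 and 10.10 in labelled double knockout livers. All 6 knockout arrays lay more than 1 log2 unit below the lowest wild type array, and replicate 1 was the highest of the NEMO knockout. The difference was -1.69 ± 0.22 (SE), or 3.23-fold, in the NEMO knockout (limma adjusted p = 0.00199). In the labelled double knockout it was -1.39 ± 0.22, or 2.62-fold (adjusted p = 0.00455).

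Cyp2c29, an epoxygenase induced by phenobarbital, was 12.90, 12.82 and 12.80 in wild type, 12.59, 12.20 and 12.22 in NEMO knockout livers, and 12.21, 12.16 and 12.29 in labelled double knockout livers. The knockout arrays did not overlap with wild type, but the shift was smaller than that of Cyp2c37. It came to -0.50 ± 0.10 in NEMO knockout livers (limma adjusted p = 0.0169) and -0.62 ± 0.10 in the labelled double knockout (adjusted p = 0.00544). With replicate 1 of wild type left out, the NEMO knockout call was lost (adjusted p = 0.0622), as it was with replicate 2 (0.063) or 3 (0.0704) of the NEMO knockout left out.

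Cyp2c50 and Cyp2c54, a pair of closely related epoxygenases, were each lower on all 6 knockout arrays than on any wild type array. Cyp2c50 was 11.50, 11.33 and 11.44 in wild type, 11.17, 10.79 and 10.80 in NEMO knockout livers, and 11.09, 11.10 and 10.84 in labelled double knockout livers. It fell by 0.50 in the NEMO knockout (limma adjusted p = 0.0287), while the difference of -0.41 in the labelled double knockout was not called (adjusted p = 0.057). In Cyp2c54 the arrays were 11.47, 11.33 and 11.51, then 11.04, 10.29 and 10.38, then 10.87, 10.97 and 10.56. Replicate 1 was again the highest of the NEMO knockout in both genes. Cyp2c54 fell by 0.86 in NEMO knockout livers (adjusted p = 0.0216) and was at -0.64 in the labelled double knockout (adjusted p = 0.0684). Both NEMO knockout calls ended without any 1 of the wild type replicates or without NEMO knockout replicate 2 or 3, with adjusted p from 0.0542 to 0.111 for Cyp2c50 and from 0.0514 to 0.0895 for Cyp2c54. Both were called in the labelled double knockout with replicate 1 of the NEMO knockout left out of the fit (0.0196 and 0.00911), arrays centred (0.0209 and 0.0328), array weights (0.0155 and 0.0161) and only the 2 groups fitted (0.0413 and 0.023), and Cyp2c50 also with a trended robust fit (0.0363), the replicate block (0.036), a mean of at least 5 (0.0461) and a test over genes (0.0448). The Cyp2c50 call in the NEMO knockout also ended when only the 2 groups compared were fitted (0.0531) or control-like probe sets were kept (0.0519).

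Cyp2c67 was 12.11, 11.76 and 12.20 in wild type, 11.56, 11.26 and 11.13 in NEMO knockout livers, and 11.53, 11.39 and 11.04 in labelled double knockout livers. No knockout array reached the lowest wild type array. It fell by 0.71 ± 0.16 in NEMO knockout livers (limma adjusted p = 0.0292) and by 0.70 ± 0.16 in the labelled double knockout (adjusted p = 0.0279). The first call was lost on leaving out replicate 1 or 3 of wild type or replicate 2 or 3 of the NEMO knockout (adjusted p from 0.0933 to 0.114), and with control-like probe sets kept (0.0543). The second was lost on leaving out replicate 1 or 3 of wild type or replicate 2 or 3 of the labelled double knockout (0.0602 to 0.102), with only the 2 groups fitted (0.0528) and with control-like probe sets kept (0.0503). Near-identical Cyp2c genes may share signal on the array, which makes their separate values uncertain.

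Cyp2c70 makes muricholic acids, the bile acids typical of mice. It was 12.81, 12.64 and 12.71 in wild type, 12.45, 12.46 and 12.43 in NEMO knockout livers, and 12.66, 12.52 and 12.65 in labelled double knockout livers. The NEMO knockout lay below both other groups without overlap, and the labelled double knockout overlapped with wild type. The NEMO knockout differed from wild type by -0.28 ± 0.07 (limma adjusted p = 0.0402) and the labelled double knockout by -0.11 ± 0.07 (adjusted p = 0.444). The call is a weak one: it was lost on leaving out replicate 1 or 3 of wild type, any replicate of the NEMO knockout, or replicate 1 or 3 of the labelled double knockout (adjusted p from 0.0533 to 0.133), and under quantile normalisation (0.0516), cyclic loess (0.0513), a fit of only the 2 groups (0.0696) and control-like probe sets kept (0.0621). Cyp2c23, the brightest Cyp2c probe set, was not called in either group, at -0.06 (adjusted p = 0.749) and -0.11 (adjusted p = 0.497), with arrays from 12.69 to 12.97. Cyp2c55 was the Cyp2c gene farthest above wild type, at 0.81 in NEMO knockout livers (adjusted p = 0.103) and 0.58 in the labelled double knockout (adjusted p = 0.241). The former was called with replicate 2 of the labelled double knockout left out of the fit (0.041).

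Promoter sequence is shown for 3 of these genes because they lie in 1 cluster on chromosome 19 and differ in a motif. The motif was found in 11 of 60 P450 genes with a promoter window, 6 of them Cyp2c genes, and in 1.41% of all windows. The lines give the 120 bases before the start of the gene from RefSeq on GRCm38.p6, 5′ to 3′, with any match to CAAAGTNCA, a site of the HNF4 type, in capitals.
Cyp2c37, chr19:39992304-39992423, plus strand: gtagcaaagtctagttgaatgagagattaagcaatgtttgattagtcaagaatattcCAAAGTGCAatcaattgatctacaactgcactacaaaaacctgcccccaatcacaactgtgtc
Cyp2c50, chr19:40089559-40089678, plus strand: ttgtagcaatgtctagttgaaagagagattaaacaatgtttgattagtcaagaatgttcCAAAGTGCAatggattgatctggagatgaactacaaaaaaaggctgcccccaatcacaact
Cyp2c29, chr19:39286965-39287084, plus strand: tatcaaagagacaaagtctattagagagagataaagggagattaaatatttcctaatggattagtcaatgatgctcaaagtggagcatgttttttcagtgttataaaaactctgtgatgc
The match began 63 bases before the start in Cyp2c37 and 61 before it in Cyp2c50, and these letters were not in the Cyp2c29 window. The windows of Cyp2c37 and Cyp2c50 were 86.6% identical over 300 bases (250 before to 50 after the start), and those of Cyp2c29 and Cyp2c50 were 60.4% identical.

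Promoter windows of that length were given for 60 of the 77 genes, and a gene was counted as matching where any of its windows did. CAAAGTNCA, searched on both strands, matched in 11 of the 60 (18.3%) and in 464 of all 32851 windows (1.41%). Among the Cyp2c genes it matched in 6 of 11, namely Cyp2c37, Cyp2c50, Cyp2c65, Cyp2c67, Cyp2c68 and Cyp2c70. It matched in 4 of the 10 genes with a window that fell in the NEMO knockout and in 0 of the 4 that rose. Those that fell were all Cyp2c genes, namely Cyp2c37, Cyp2c50, Cyp2c67 and Cyp2c70. The other matching genes were Cyp26a1, Cyp2c65, Cyp2c68, Cyp2d26, Cyp3a11, Cyp3a16 and Cyp3a44, and none of them was called in that group. A link between the match and the fall was not tested. The sequence TATAAA matched in 24 of the 60 (40.0%) and in 13.6% of all windows. TTCNNNGAA, a site of the STAT type, matched in 4 of the 60 (6.67%) and in 8.30% of all windows. Related genes share promoter sequence by descent, so these matches are not independent, and a match is a description of the letters and not a binding site.

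The Cyp2d genes, whose enzymes oxidise many drugs and amines, were below wild type in the mean for all 9 measured members in both knockout groups. Some of these differences were negligible. They ran from -0.66 to -0.015 in the NEMO knockout and from -0.91 to -0.0048 in the labelled double knockout. The medians of all probe sets were also below wild type, at -0.04 and -0.03. In the NEMO knockout 2 fell, none rose, and the median was -0.18 log2. In the labelled double knockout 3 fell, none rose, and the median was -0.13. Cyp2d13 was 11.39, 11.23 and 11.46 in wild type, 10.88, 10.84 and 10.86 in NEMO knockout livers, and 10.61, 10.63 and 10.34 in labelled double knockout livers. The groups stood in 3 separate steps. Cyp2d13 fell by 0.50 ± 0.09 in NEMO knockout livers (limma adjusted p = 0.0102) and by 0.83 ± 0.09 in the labelled double knockout (adjusted p = 0.000712).

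Cyp2d40 was 9.29, 9.10 and 9.03 in wild type, 8.41, 8.55 and 8.47 in NEMO knockout livers, and 8.49, 8.11 and 8.11 in labelled double knockout livers. All knockout arrays lay below wild type. It fell by 0.66 ± 0.11 in NEMO knockout livers (limma adjusted p = 0.00732) and by 0.91 ± 0.11 in the labelled double knockout (adjusted p = 0.00133). Cyp2d10 was 11.12, 11.14 and 11.04, then 10.91, 10.91 and 10.93, then 10.88, 10.80 and 10.53 in the same order. Its small shift was called in the labelled double knockout alone, at -0.36 ± 0.09 (adjusted p = 0.0339), against -0.18 ± 0.09 (adjusted p = 0.294) in the NEMO knockout, and the difference between the knockouts of -0.18 was not called (adjusted p = 0.698). That call was lost on leaving out any replicate of wild type, or replicate 2 or 3 of either knockout group (adjusted p from 0.0522 to 0.0986), under cyclic loess (0.0545), with only the 2 groups fitted (0.0822) and with control-like probe sets kept (0.0557). Cyp2d26, the brightest Cyp2d probe set, ran from 13.11 to 13.30 and differed from wild type by -0.05 in both groups (adjusted p = 0.754 and 0.741).

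Single members of other Cyp2 subfamilies also fell. Cyp2j5, an arachidonic acid epoxygenase of liver and kidney and the brightest of 6 Cyp2j probe sets, was 12.40, 12.21 and 12.48 in wild type, 11.89, 11.93 and 11.93 in NEMO knockout livers, and 11.92, 11.72 and 11.85 in labelled double knockout livers. It fell by 0.45 ± 0.08 (limma adjusted p = 0.011) and by 0.54 ± 0.08 (adjusted p = 0.0041), and was the only Cyp2j gene called in either comparison. Cyp2r1, which makes the circulating form of vitamin D, was 9.18, 9.20 and 9.16, then 8.81, 8.83 and 8.95, then 8.75, 8.81 and 8.69. The wild type arrays lay close together and above all knockout arrays. Cyp2r1 fell by 0.32 ± 0.06 (adjusted p = 0.0157) and by 0.43 ± 0.06 (adjusted p = 0.00334). The first of these calls was lost on leaving out replicate 1 (0.0512) or 2 (0.0509) of wild type or replicate 2 of the NEMO knockout (0.0569).

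Cyp2u1 hydroxylates long-chain fatty acids. It was 9.55, 9.86 and 9.94 in wild type, 9.27, 9.29 and 9.23 in NEMO knockout livers, and 8.49, 9.02 and 8.56 in labelled double knockout livers. The 3 groups did not overlap. The difference from wild type was -0.52 ± 0.15 in the NEMO knockout, which was not called (limma adjusted p = 0.0629), and -1.10 ± 0.15, or 2.14-fold, in the labelled double knockout (adjusted p = 0.00178). The NEMO knockout difference was called with replicate 1 of wild type (-0.64, adjusted p = 0.042) or replicate 2 of the labelled double knockout (0.018) left out, and in 5 other settings (0.0368 to 0.049).

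The Cyp4 family split in its called genes. Of 8 Cyp4f genes, 2 rose and 2 fell in each knockout group, with medians of -0.11 and -0.09. Cyp4f14, an enzyme that hydroxylates leukotriene B4 and the vitamin E side chain, was 12.03, 11.81 and 11.95 in wild type, 11.57, 11.58 and 11.59 in NEMO knockout livers, and 11.58, 11.50 and 11.54 in labelled double knockout livers. It fell by 0.35 ± 0.07 (limma adjusted p = 0.0135; 0.0507 without wild type replicate 3) and by 0.39 ± 0.07 (adjusted p = 0.00729). Cyp4f13 was 10.67, 10.75 and 10.79, then 10.25, 10.26 and 10.11, then 10.33, 10.24 and 10.14. It fell by 0.53 ± 0.07 (adjusted p = 0.0027) and by 0.50 ± 0.07 (adjusted p = 0.00313). Both genes were lower on every knockout array than on any wild type array.

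Cyp4b1, which oxidises fatty acids and activates some lung toxins, was 8.63, 8.98 and 8.61 in wild type, 8.28, 8.47 and 8.22 in NEMO knockout livers, and 8.31, 8.25 and 8.39 in labelled double knockout livers. The difference was -0.42 in each group, called in the labelled double knockout (limma adjusted p = 0.0436) and just short of a call in the NEMO knockout (adjusted p = 0.0529). The call was lost on leaving out any replicate of wild type or the labelled double knockout, or replicate 1 or 3 of the NEMO knockout (adjusted p from 0.0554 to 0.127), under cyclic loess (0.069), with only the 2 groups fitted (0.0753) and with control-like probe sets kept (0.0714). The NEMO knockout difference was called in 5 other settings (0.0317 to 0.0451). The 3 Cyp4a genes, fatty acid hydroxylases driven by PPARα, had no call. Cyp4a14, the brightest of them, spread over 10.71 to 12.11 within the NEMO knockout and differed from wild type by 0.06 (adjusted p = 0.959) and 0.36 (adjusted p = 0.731).

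Cyp2a22 had the largest called difference of any P450 gene in both comparisons with wild type. It was 7.37, 6.29 and 6.54 in wild type, 9.50, 8.95 and 8.95 in NEMO knockout livers, and 8.94, 10.05 and 9.13 in labelled double knockout livers. The lowest knockout array was more than 1 log2 unit above the highest wild type array. The rise was 2.40 ± 0.34, or 5.28-fold, in NEMO knockout livers (limma adjusted p = 0.00267) and 2.64 ± 0.34, or 6.23-fold, in the labelled double knockout (adjusted p = 0.00146). The other Cyp2a gene with its own probe set, Cyp2a12, was at 0.08 and 0.13 and was not called.

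Cyp4f16 and Cyp4f18 rose while Cyp4f13 and Cyp4f14 fell. Cyp4f16 was 6.72, 6.96 and 7.23 in wild type, 8.01, 8.33 and 8.42 in NEMO knockout livers, and 7.96, 8.04 and 7.91 in labelled double knockout livers. It rose by 1.28 ± 0.14, or 2.44-fold (limma adjusted p = 0.000846), and by 1.0 ± 0.14 (adjusted p = 0.00219). Cyp4f18, the leukotriene B4 hydroxylase of neutrophils and other myeloid cells, was 5.70, 5.80 and 5.81, then 6.67, 6.78 and 6.79, then 6.41, 6.41 and 6.62. The NEMO knockout was the highest group and wild type the lowest, with no overlap among the 3. Cyp4f18 rose by 0.98 ± 0.08, or 1.97-fold (adjusted p = 0.00025), and by 0.71 ± 0.08 (adjusted p = 0.000705).

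Cyp1b1 oxidises oestradiol and procarcinogens and is made in mesenchymal cells such as stellate cells. It was 5.74, 5.72 and 5.68 in wild type, 6.20, 6.53 and 6.34 in NEMO knockout livers, and 6.11, 6.15 and 6.18 in labelled double knockout livers. It rose by 0.65 ± 0.08 (limma adjusted p = 0.00169) and by 0.44 ± 0.08 (adjusted p = 0.0102), and the groups did not overlap. Cyp1b1 and Cyp4f18 rose in each comparison and make up a short list of P450 genes with myeloid or mesenchymal expression. That list was written by hand with earlier results known and is not complete. The rise of both its genes is therefore a description and not a test. The marker means of macrophages, stellate cells and fibroblasts given above moved the same way. Of 6 neutrophil markers 2 were called higher in NEMO knockout livers and 1 in the labelled double knockout, with means of 5.39 to 5.42 in wild type, 5.63 to 5.99 in NEMO knockout livers and 5.53 to 5.65 in the labelled double knockout. The part of these cells in the rise of Cyp1b1 and Cyp4f18 was not tested.

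**Figure D2:**
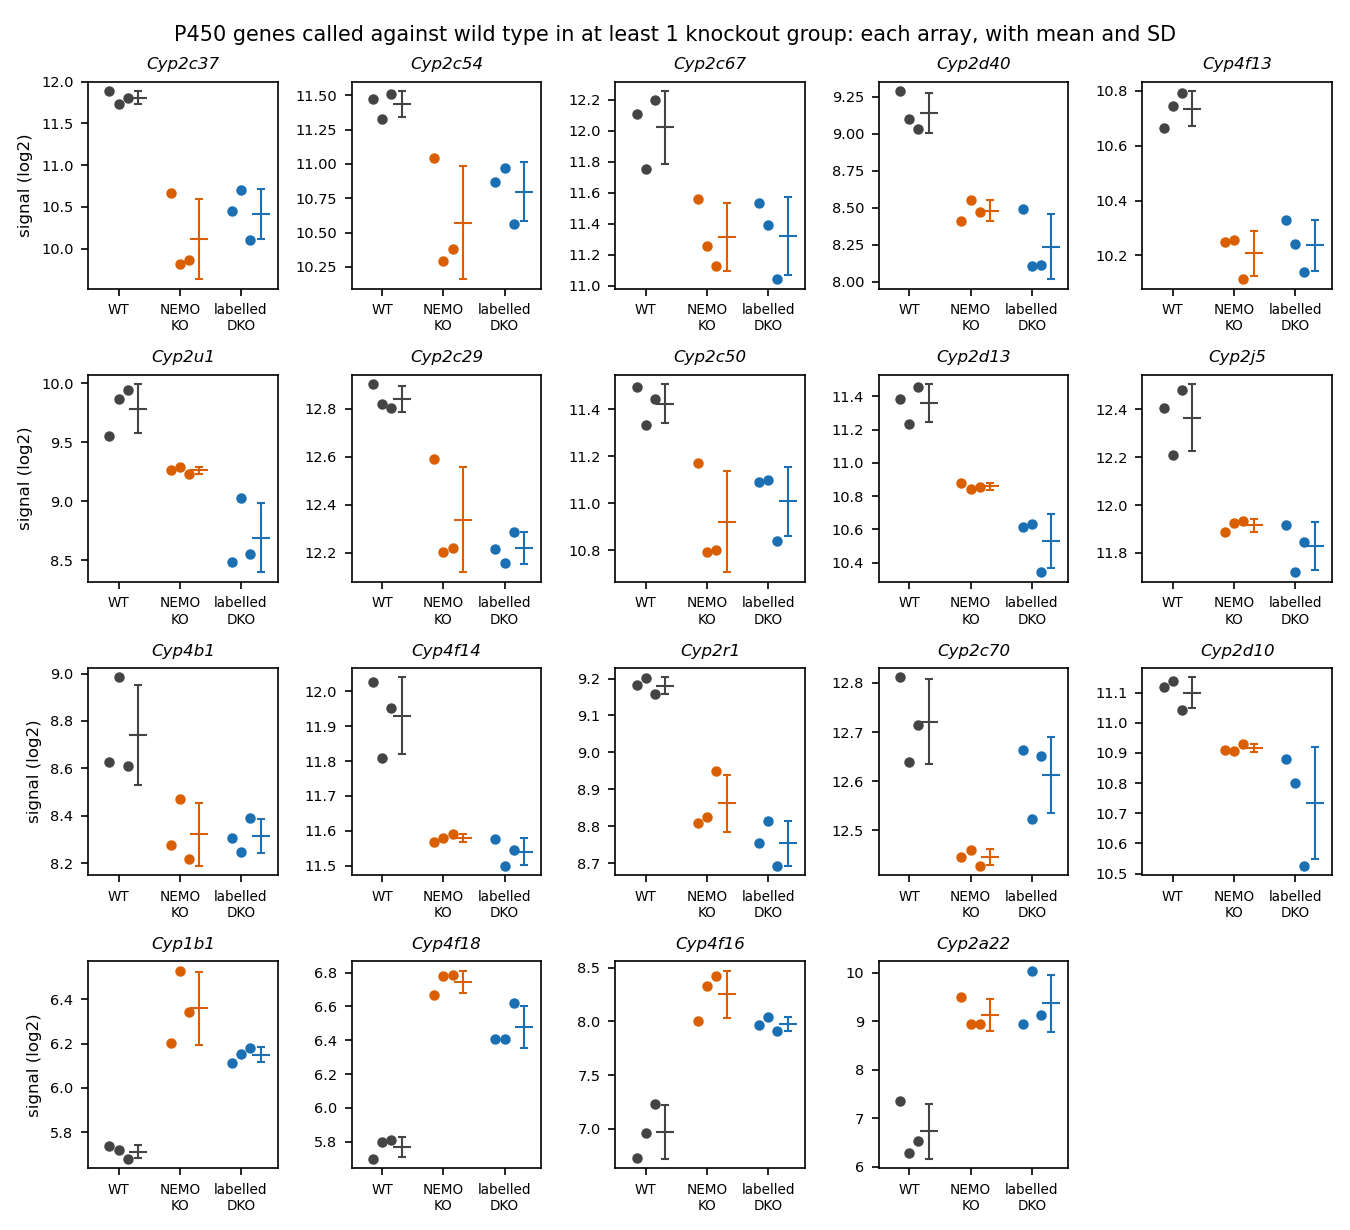
Signal (log2, vertical axis, scaled per gene) on each array for the 19 P450 genes called against wild type in at least 1 knockout group; 3 points per group, with the mean and SD (n = 3) beside them. Cyp2c37 shows the deepest fall, from 11.73 or more in wild type to 10.70 or less in the knockouts, and Cyp2a22 the largest rise, from 7.37 or less to 8.94 or more.

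None of the 5 Cyp2b genes was called, although Cyp2b9 and Cyp2b10 had large differences. Cyp2b10 is the classical target of the receptor CAR, and Cyp2b9 and Cyp2b13 are more expressed in female than in male liver. Cyp2b9, the brightest of 5 Cyp2b probe sets, was 9.74, 8.06 and 5.67 in wild type, 10.84, 9.05 and 9.16 in NEMO knockout livers, and 10.97, 10.59 and 10.90 in labelled double knockout livers. Wild type spanned more than 4 log2 units, whereas the labelled double knockout arrays lay between 10.59 and 10.97, above all wild type arrays. The difference was 1.86 ± 0.87 in NEMO knockout livers (limma adjusted p = 0.271) and 2.99 ± 0.87, or 7.96-fold, in the labelled double knockout (adjusted p = 0.0657). The latter was called with replicate 1 of wild type left out (3.95, adjusted p = 0.0151), with the replicate number as a block (0.0294) and when tested over genes (0.0487).

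Cyp2b10 was 5.97, 7.16 and 5.75 in wild type, 8.00, 6.59 and 7.68 in NEMO knockout livers, and 10.22, 7.13 and 9.46 in labelled double knockout livers. Replicate 2 of the labelled double knockout lay within the wild type range, and replicates 1 and 3 lay more than 2 log2 units above its top. The difference was 1.13 ± 0.73 in NEMO knockout livers (limma adjusted p = 0.443) and 2.65 ± 0.73 in the labelled double knockout (adjusted p = 0.0541). Without labelled double knockout replicate 2 it was 3.55 (adjusted p = 0.00572). It also passed the threshold with arrays centred (0.0494), with array weights (0.0305), among probe sets with a mean of at least 5 (0.0429) and when tested over genes (0.0399). Cyp2b13, which is dim, was at 0.30 (adjusted p = 0.423) and 0.54 (adjusted p = 0.126), the latter 0.0176 with the replicate block. Cyp2b19 was at 0.02 and 0.09, and Cyp2b23 at -0.05 and -0.10; their signs turned in some alternatives.

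The promoters of this subfamily are shown because their genes differ in how alike they are. The lines give the 120 bases before the start from RefSeq on GRCm38.p6, with capitals in Cyp2b10 for the bases that differ from Cyp2b9 in a pairwise alignment.
Cyp2b9, chr7:26173289-26173408, plus strand: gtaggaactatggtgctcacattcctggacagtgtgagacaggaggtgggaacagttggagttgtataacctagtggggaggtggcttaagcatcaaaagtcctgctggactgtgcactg
Cyp2b10, chr7:25897538-25897657, plus strand: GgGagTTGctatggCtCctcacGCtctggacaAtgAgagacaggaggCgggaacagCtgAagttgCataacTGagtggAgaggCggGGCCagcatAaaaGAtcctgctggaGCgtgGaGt
Cyp2b10 had 90 identical bases over 122 columns of the alignment. The 120 bases of Cyp2b13 matched those of Cyp2b9 at all 120 positions, and their 300-base windows were 99.3% identical. None of the 5 Cyp2b windows held TATAAA or CAAAGTNCA. How alike the transcripts of Cyp2b9 and Cyp2b13 are was not analysed. Where they are as alike, their signal may not be separable, though the levels and differences given above for their probe sets were unlike.

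Of the 3 Cyp26 enzymes, which break down retinoic acid, Cyp26a1 and Cyp26b1 were below wild type in the mean, and none was called. Cyp26c1 was at -0.04 (limma adjusted p = 0.875) and 0.07 (adjusted p = 0.802). Cyp26a1 was 10.28, 8.46 and 7.87 in wild type, 6.47, 5.47 and 7.73 in NEMO knockout livers, and 7.26, 6.68 and 7.81 in labelled double knockout livers. The groups did not overlap with wild type, but the lowest wild type array (7.87) was close to the highest NEMO knockout array (7.73). The difference was -2.32 ± 0.68, or 4.98-fold, in NEMO knockout livers (limma adjusted p = 0.0747) and -1.62 ± 0.68 in the labelled double knockout (adjusted p = 0.205). Without NEMO knockout replicate 3 the former was -2.90 (adjusted p = 0.0483).

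Cyp26b1 was 8.76, 8.23 and 7.57 in wild type, 6.94, 6.81 and 7.57 in NEMO knockout livers, and 7.70, 7.40 and 7.52 in labelled double knockout livers, with overlap in both comparisons. It differed by -1.08 ± 0.28 (limma adjusted p = 0.0504) and -0.65 ± 0.28 (adjusted p = 0.234). The former was called with replicate 3 of wild type left out (-1.39, adjusted p = 0.0151) or replicate 3 of the NEMO knockout (-1.32, adjusted p = 0.0408). It also passed under quantile normalisation (0.0409), centring (0.0371), a trended robust fit (0.0458), a mean of at least 5 (0.04) and a test over genes (0.0361).

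The Cyp26a1 promoter is shown because it carries the direct repeat read by retinoic acid receptors, TGAACT followed after any 5 bases by TGAACT again, in capitals below. Cyp26a1 is a known target of retinoic acid, its own substrate.
Cyp26a1, chr19:37697688-37697807, plus strand: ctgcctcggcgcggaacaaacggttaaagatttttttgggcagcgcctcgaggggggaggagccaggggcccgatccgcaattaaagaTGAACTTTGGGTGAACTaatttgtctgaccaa
The repeat began 32 bases before the start. On both strands it was found in 1 of the 60 P450 genes with a promoter window and in 8 of all 32851 windows (0.0244%).

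**Figure D3:**
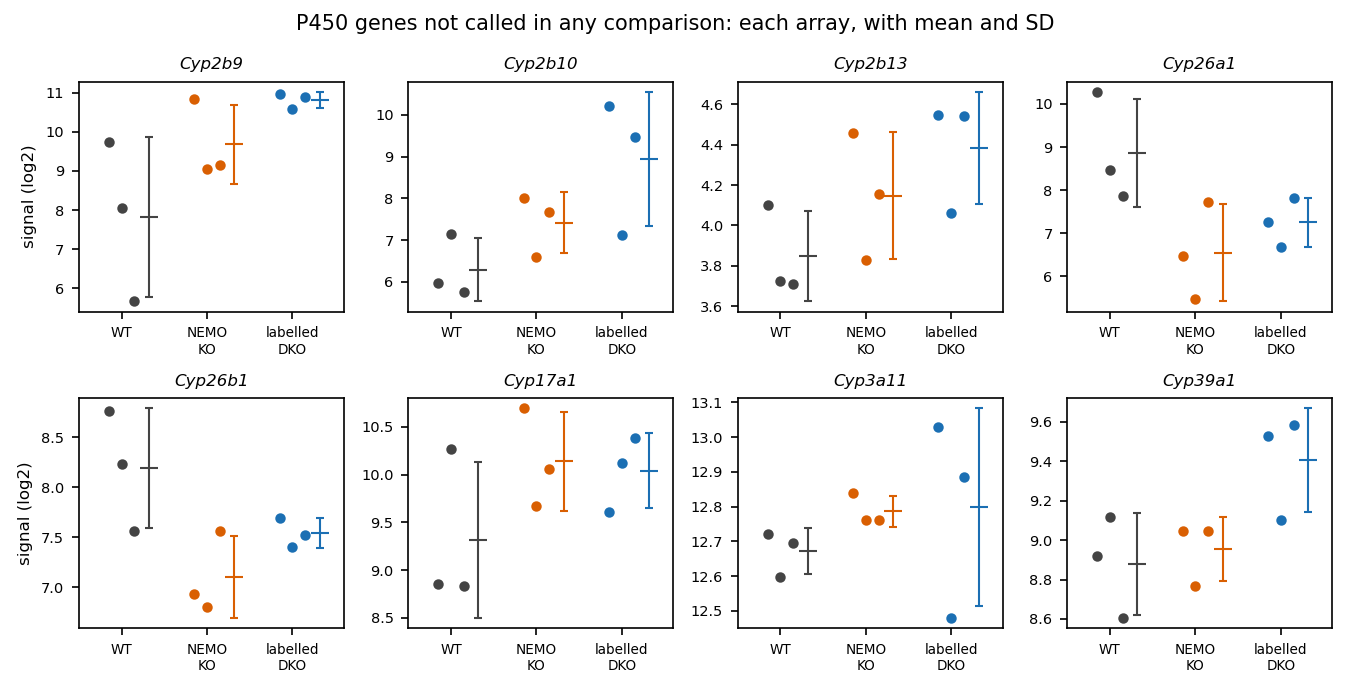
Signal (log2, vertical axis, scaled per gene) on each array for 8 P450 genes that were called in no comparison; 3 points per group, with the mean and SD (n = 3) beside them. Cyp2b9 runs from 5.67 to 9.74 within wild type, and in Cyp2b10 labelled double knockout replicate 2 lies at 7.13 while the other two lie at 9.46 and 10.22.

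Several of the main drug-oxidising genes outside Cyp2c and Cyp2d were not called. Cyp3a11, the brightest of 6 Cyp3a probe sets and a target of the receptor PXR, was 12.72, 12.60 and 12.70 in wild type, 12.84, 12.76 and 12.76 in NEMO knockout livers, and 13.03, 12.48 and 12.88 in labelled double knockout livers. Its differences were 0.12 (limma adjusted p = 0.662) and 0.13 (adjusted p = 0.664), and none of the 6 Cyp3a genes was called in either comparison. Outside this count, probe sets annotated jointly to several Cyp3a genes were called higher in both groups. That of Cyp3a41b, Cyp3a44 and Cyp3a41a was at 1.54 and 1.68, and that of these genes and Cyp3a11 at 1.29 and 1.43. Cyp2e1, which oxidises ethanol and paracetamol, was at -0.23 (adjusted p = 0.0943) and -0.24 (adjusted p = 0.0676). It was called lower with arrays centred (0.0303 and 0.020), array weights (0.0476 and 0.026) and a trended robust fit (0.0264 and 0.0173), and in the labelled double knockout also under quantile normalisation (0.0306) and cyclic loess (0.043). Cyp1a2, which oxidises caffeine, was at -0.27 (adjusted p = 0.119; 0.0493 with arrays centred) and -0.13 (adjusted p = 0.491), and Cyp1a1 was at -0.02 and 0.25. A p above the threshold does not show that these levels were the same.

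Genes of steroid synthesis and oxysterol metabolism were not called either. Cyp17a1, the steroid hydroxylase and lyase, was 8.85, 10.26 and 8.84 in wild type, 10.69, 9.67 and 10.06 in NEMO knockout livers, and 9.61, 10.12 and 10.39 in labelled double knockout livers. Wild type replicate 2 lay among the knockout arrays. The differences were 0.82 ± 0.40 (limma adjusted p = 0.292) and 0.72 ± 0.40 (adjusted p = 0.362), and without wild type replicate 2 the former was 1.29 (adjusted p = 0.0475). Cyp39a1, an oxysterol hydroxylase, was 8.92, 9.12 and 8.61 in wild type, 9.05, 8.77 and 9.05 in NEMO knockout livers, and 9.53, 9.10 and 9.58 in labelled double knockout livers. It differed from wild type by 0.07 (adjusted p = 0.85) and 0.52 (adjusted p = 0.0827). The latter was called with replicate 2 of the labelled double knockout left out (0.68, adjusted p = 0.0333) and with array weights (0.0464). In the 5 measured genes of steroid hormone synthesis there was no call in either comparison.

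Grouped by role, 6 of the 10 lists held a call. Of 8 targets of CAR and PXR, 4 fell in NEMO knockout livers (Cyp2c29, Cyp2c37, Cyp2c50 and Cyp2c54) and 2 in the labelled double knockout (Cyp2c29 and Cyp2c37), with medians of -0.19 and -0.16 log2. The targets did not move as 1 group, since 4 differences were positive and 4 negative in each comparison. They ran from -1.69 to 1.13 and from -1.39 to 2.65, with Cyp2b10, which was not called, at the top of both ranges. Of 6 perivenous genes, expressed around the central vein, 3 fell in NEMO knockout livers and 2 in the labelled double knockout, with medians of -0.39 and -0.33. These are again Cyp2c genes that the list of CAR and PXR targets also holds. Among 8 female-biased genes none was called on its own probe set. All 8 differences were positive in NEMO knockout livers and 7 in the labelled double knockout, with the lowest at 0.01 and -0.03. Without wild type replicate 3 that of Cyp39a1 in NEMO knockout livers turned to -0.065. The medians of the 8 genes were 0.52 and 0.53, beside -0.04 and -0.03 for all probe sets. Like the other lists, this list was written by hand with earlier results known, and its related genes are not independent. The signs are therefore a description and not a test. The list has 3 further genes, Cyp2a4, Cyp2c40 and Cyp2c69, that only share probe sets with other genes. The probe set of Cyp2a5 and Cyp2a4 was at -0.24 and 0.26 without a call, and that of Cyp2c69, Cyp2c67, Cyp2c68 and Cyp2c40 fell by 0.68 (limma adjusted p = 0.010) and 0.46 (adjusted p = 0.0495). Cyp3a44, which is on the list, also shares probe sets with other genes. The probe set of Cyp3a41b, Cyp3a44 and Cyp3a41a was called higher in both groups, at 1.54 and 1.68. That of these genes and Cyp3a11 was too, at 1.29 and 1.43. Of the 2 genes on the male-biased list, Cyp2u1 fell in the labelled double knockout and Cyp2d9 was not called. Cyp4a12a, also male-biased but outside the rule, was at -0.22 and -0.53 without a call. None of the 3 measured PPARα targets and neither periportal gene was called, and of 5 genes of vitamin D and retinoid metabolism Cyp2r1 fell in both comparisons. Of the 3 targets of the aryl hydrocarbon receptor, Cyp1b1 rose.

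The comparison of both knockout groups asks what the labelled loss of p21 adds. None of the 77 genes was called by limma in either direction, where 0.197% of all probe sets were called (0.0864% higher and 0.111% lower), and the count stayed at 0 in all 19 alternative settings. At an unadjusted p under 0.05, 6 genes passed, 2 higher and 4 lower in the labelled double knockout (7.79%, beside 7.46% of all probe sets). The smallest adjusted p was 0.264, for Cyp2u1, which differed by -0.57 with a 95% interval of -0.90 to -0.25 and no overlap between the groups. The other three below the NEMO knockout were Cyp2d13 at -0.33 (-0.54 to -0.12, adjusted p = 0.342), Cyp4f18 at -0.27 (-0.44 to -0.09, adjusted p = 0.381) and Cyp1b1 at -0.21 (-0.40 to -0.02, adjusted p = 0.624). Those above it were Cyp39a1 at 0.45 (0.09 to 0.81, adjusted p = 0.552) and Cyp2c70 at 0.17 (0.01 to 0.32, adjusted p = 0.629). The median difference was 0.01 log2.

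Several intervals were wide. Cyp2b10 differed between the knockout groups by 1.52 (-0.13 to 3.16, limma adjusted p = 0.694), Cyp2b9 by 1.13 (-0.82 to 3.09, adjusted p = 0.845) and Cyp26a1 by 0.70 (-0.82 to 2.22, adjusted p = 0.882), so differences of severalfold were not detectable with 3 arrays per group. Cyp3a11 was narrower, at 0.01 (-0.27 to 0.29), as was Cyp2c29 at -0.12 (-0.35 to 0.11). Cyp2c37 differed by 0.30 (-0.20 to 0.80) and Cyp2a22 by 0.24 (-0.52 to 1.0).

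**Figure D4:**
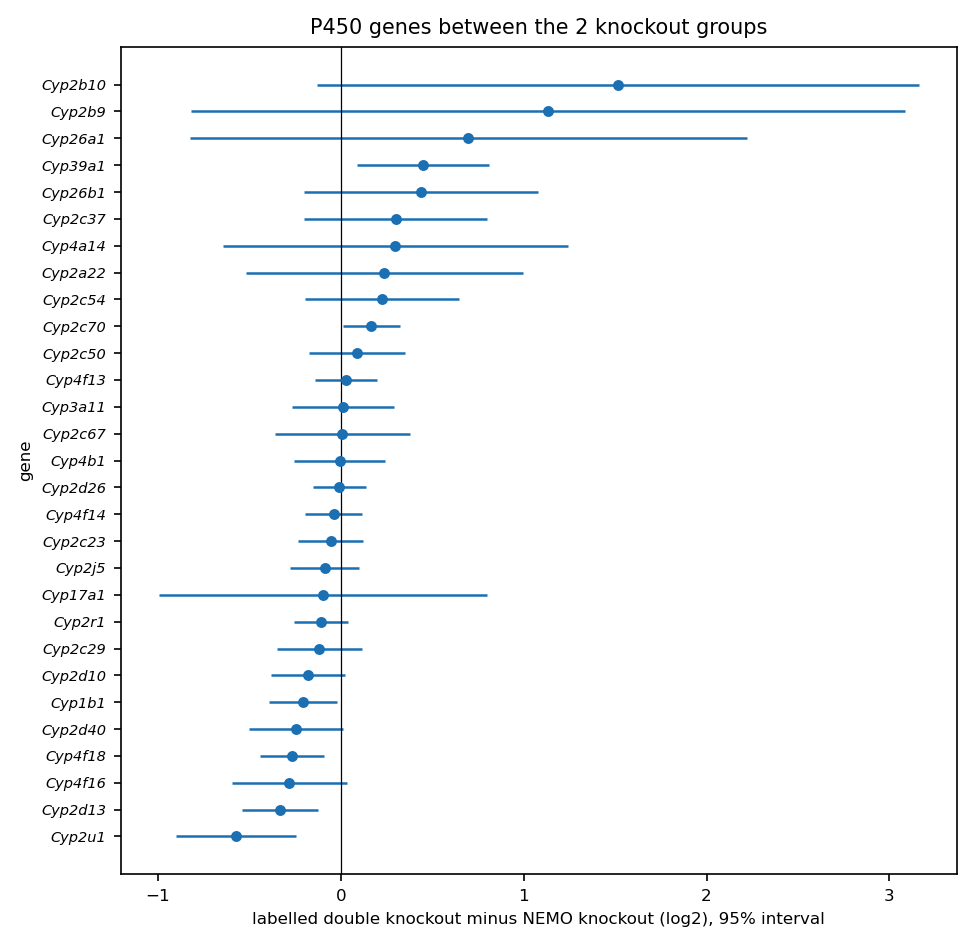
Difference between the labelled double knockout and the NEMO knockout (log2, horizontal axis) for 29 named P450 genes, 1 row per gene; points are mean differences and bars are 95% intervals from limma without adjustment for the number of genes. The intervals of 6 genes leave out 0, with Cyp2u1 lowest among these at -0.57, and the widest are those of Cyp2b9, Cyp2b10 and Cyp26a1.

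Few partners of the P450 enzymes were called. Of 6 measured electron donors and partners, Cyb5b, the cytochrome b5 of the outer mitochondrial membrane, fell by 0.40 ± 0.07 in NEMO knockout livers (limma adjusted p = 0.00603) and by 0.36 ± 0.07 in the labelled double knockout (adjusted p = 0.00891). Ephx1, the microsomal epoxide hydrolase, rose by 0.37 ± 0.07 in the labelled double knockout (adjusted p = 0.0123) and was at 0.23 in the NEMO knockout (adjusted p = 0.0957; called under cyclic loess, 0.0428, and a trended robust fit, 0.0368). None of 7 haem synthesis genes was called in either comparison, with Alas1, the rate-limiting enzyme, at -0.17 and 0.17. Of 4 haem breakdown genes, Hmox1 rose by 0.68 ± 0.15 in the labelled double knockout (adjusted p = 0.023) and was at 0.52 in the NEMO knockout (adjusted p = 0.0771). The Hmox1 call was lost on leaving out any replicate of wild type or replicate 1 or 3 of the labelled double knockout (0.0589 to 0.085). In the NEMO knockout Hmox1 was called without its replicate 1 (0.0466), under cyclic loess (0.0468) and with array weights (0.0405).

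Of 18 receptors and factors that regulate P450 genes none was called in the NEMO knockout. Nr5a2, the receptor LRH-1, fell in the labelled double knockout by 0.26 ± 0.06 (limma adjusted p = 0.0299), and the other 17 were not called. The Nr5a2 call was lost on leaving out replicate 1 or 3 of wild type or of the labelled double knockout (0.091 to 0.105), under cyclic loess (0.056), with only the 2 groups fitted (0.0547) and with the replicate block (0.0514). CAR (Nr1i3) was at 0.12 and -0.04, PXR (Nr1i2) at 0.13 and 0.40 (called at 0.54 with replicate 2 of the labelled double knockout left out, adjusted p = 0.0136), and Hnf4a at -0.05 and -0.03. The flavin monooxygenases oxidise many of the same compounds without haem. Of 4 measured, Fmo2 and Fmo4 rose in the NEMO knockout, by 0.79 ± 0.19 (adjusted p = 0.0371) and 1.08 ± 0.17 (adjusted p = 0.00418). All 4 rose in the labelled double knockout, by 0.42 (Fmo1, adjusted p = 0.0373), 1.68 (Fmo2, 0.000838), 0.71 (Fmo4, 0.0287) and 0.70 (Fmo5, 0.0217). Several of these calls depended on single arrays. The Fmo2 call in the NEMO knockout was lost on leaving out replicate 1 or 3 of any group (0.0516 to 0.134), under quantile normalisation (0.0595), with only the 2 groups fitted (0.0634), the replicate block (0.0526) or control-like probe sets kept (0.0665). Fmo1 lost its call in the labelled double knockout in 10 settings, among them leaving out replicate 1 or 3 of wild type, replicate 3 of the NEMO knockout or any replicate of its own group (0.0519 to 0.13). Fmo4 lost it without replicate 1 or 3 of wild type or any replicate of its own group (0.063 to 0.102), with only the 2 groups fitted (0.0713) and with control-like probe sets kept (0.0515). Fmo5 lost it without replicate 1 or 3 of wild type or of its own group (0.0647 to 0.0849) and with only the 2 groups fitted (0.0585). In the NEMO knockout Fmo1 was at 0.40 (adjusted p = 0.0505) and was called in 6 settings, among them leaving out replicate 2 of wild type (0.0257) or of the NEMO knockout (0.0348). None of these partner genes was called between the knockout groups.

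Among the remaining members, several were dim. A mean below 5 log2 was found in 13 of the 77 genes, none of which was called, and 1 gene (Cyp2c65) had 1 repeated value on all arrays of a group. At an unadjusted p under 0.05, 30 of the 77 genes passed in NEMO knockout livers (7 higher, 23 lower) and 32 in the labelled double knockout (11 higher, 21 lower), or 39.0% and 41.6%, beside 20.3% and 21.0% of all probe sets. By position, chromosome 19, which holds the Cyp2c cluster, had 16 of the 77 genes and 6 of the 12 that fell in the NEMO knockout.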

How the data were processed

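The deposited table holds 1 log2 expression value per probe set and array, made by the authors with RMA, which corrects background, quantile-normalises the arrays and summarises probes by median polish, per the submitters' processing notes. The log base was inferred from the method and the range of values. For versions, build and filters, nothing is stated in the sources used here. RMA equalises the arrays, so a general shift of all RNA would not be seen.

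The 77 genes and all lists were chosen with earlier results of these data known. Of 35556 probe sets, 6617 (18.6%) that precede the first annotated identifier were taken as controls and left out. The other 28939 carried 1 symbol (21789), several (1621) or none (5529). All 77 members matched the NCBI gene table by identifier.

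Differences were fitted with limma 3.58.1 (R 4.3.3; lmFit, eBayes) on all 9 arrays with 1 mean per group, adjusted by Benjamini-Hochberg over all probe sets tested, and called at an adjusted p under 0.05. Fits were tested on simulated data. Folds are on the RMA scale. Arrays give no read depth, and 3 per group limit the precision. Named genes are all called members, the brightest of each subfamily with at least 3 members, the 5 largest uncalled differences per comparison, the targeted genes and called pathway genes; some others were chosen after their values were seen. Promoter windows are RefSeq sequence of GRCm38.p6, aligned with Biopython 1.88.

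Alternatives were quantile, median and cyclic loess scaling, array weights, a trended robust fit, only the 2 groups compared, the replicate number as a block, a mean of at least 5, controls kept, testing over genes, and leaving out each array. Probe sets annotated to several genes, or with symbols outside the rule, were not members.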

Additional observations from a re-analysis of the deposited data

Results flagged for a closer look

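Probe sets annotated to several P450 genes were outside the gene counts, and 2 of them carried a signal above wild type. The probe set annotated jointly to Cyp3a41b, Cyp3a44 and Cyp3a41a was 10.04, 9.92 and 9.95 log2 in wild type, 11.96, 11.15 and 11.42 in the NEMO knockout, and 11.42, 11.93 and 11.60 in the labelled double knockout. All 6 knockout arrays lay more than 1 log2 unit above wild type. The difference was 1.54 ± 0.19 (SE) in the NEMO knockout (limma adjusted p = 0.00151) and 1.68 ± 0.19 in the labelled double knockout (adjusted p = 0.000836). The probe set annotated to these genes and Cyp3a11 was 9.95, 10.03 and 10.19 in wild type, 11.86, 10.93 and 11.24 in the NEMO knockout, and 11.22, 11.84 and 11.39 in the labelled double knockout. It differed by 1.29 ± 0.23 (adjusted p = 0.00809) and 1.43 ± 0.23 (adjusted p = 0.00431). Cyp3a41a, Cyp3a41b and Cyp3a44 are expressed mainly in female mouse liver. Which of the annotated genes gives the signal cannot be told apart. The probe sets annotated to 1 gene alone were at 0.52 for Cyp3a44 (adjusted p = 0.191) and 0.12 for Cyp3a11 (adjusted p = 0.662) in the NEMO knockout, and at 0.49 (adjusted p = 0.208) and 0.13 (adjusted p = 0.664) in the labelled double knockout. With replicate 2 of the labelled double knockout left out, Cyp3a44 was called at 0.52 (adjusted p = 0.0231) and 0.77 (adjusted p = 0.00812), and with only the 2 groups fitted in the NEMO knockout (0.0418).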

How the results depend on the processing

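Each count was recomputed under 19 alternatives, and 132 differences of single genes or probe sets under 18 or 19 (dim genes drop out of the filter, and the test over genes was run for the 77 only). Of these differences 17 changed sign in some alternative, none of them called. Genes lower in the NEMO knockout numbered 12, and 20 with arrays centred on the median; leaving out 1 array gave 6 to 14. Genes higher in the NEMO knockout numbered 4 (4 to 6 without 1 array). In the labelled double knockout those lower numbered 12 (9 to 14) and those higher 4 (4 to 7), and between the knockout groups both counts were 0 in every alternative. Of 16 genes called in the NEMO knockout, 9 kept their call in all alternatives, and of 16 in the labelled double knockout 13 did. Same-numbered arrays of different groups deviated together at r = -0.12 to 0.39, over 0.1 in 3 of 9 pairs. Differently numbered arrays of different groups did so at r = -0.30 to 0.18. With so few arrays these values do not settle whether the numbers pair the samples, and the labels do not say. With the replicate number as a block 14 genes were lower and 4 higher in the NEMO knockout, and 14 lower and 6 higher in the labelled double knockout. Replicate 1 of the NEMO knockout had the lowest array weight, 0.412. Between the knockout groups, centring moved the share of higher calls among all calls from 43.9% to 54.8%. The 13 dim genes are limited by signal over background. Against wild type in the NEMO knockout the sign turned with arrays centred for Cyp4a14 (-0.0039) and Cyp2b19 (-0.043), with array weights for Cyp4a14 (-0.035), and for Cyp1a1 under quantile normalisation (0.014) and cyclic loess (0.019). Between the knockout groups it turned for Cyp3a11 under quantile normalisation (-0.0080) and cyclic loess (-0.0028). Leaving out 1 array gave, in the NEMO knockout, -0.18 to 0.53 for Cyp4a14, -0.065 to 0.19 for Cyp39a1, -0.12 to 0.15 for Cyp1a1, -0.24 to 0.090 for Cyp2b23, -0.10 to 0.0048 for Cyp26c1, -0.31 to 0.038 for Alas1, -0.020 to 0.20 for Nr1i3 and -0.48 to 0.019 for the probe set of Cyp2a5 and Cyp2a4. In the labelled double knockout it gave -0.017 to 0.56 for Cyp4a14, -0.052 to 0.19 for Cyp2b19, -0.29 to 0.042 for Cyp2b23, -0.039 to 0.14 for Cyp26c1 and -0.12 to 0.071 for Hnf4a. Between the knockout groups it gave -0.10 to 0.17 for Cyp3a11, -0.18 to 0.0087 for Cyp2c29 and -0.10 to 0.45 for Cyp2a22.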

Other observations

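In all, 13 P450 probe sets fell outside the rule. The probe set annotated jointly to Cyp2c69, Cyp2c67, Cyp2c68 and Cyp2c40 was called lower in both comparisons with wild type, at -0.68 in NEMO knockout livers (limma adjusted p = 0.010) and -0.46 in the labelled double knockout (adjusted p = 0.0495). The second call was lost in 11 of 18 alternatives, 7 of which left out 1 array (replicate 1 or 3 of wild type, 2 or 3 of the NEMO knockout, or any of the labelled double knockout; adjusted p from 0.0637 to 0.167). The probe set shared by Cyp4v3 and Klkb1 was at -0.22 (adjusted p = 0.0768) and was called lower in the labelled double knockout, at -0.26 (adjusted p = 0.0335). That call was lost on leaving out any replicate of wild type or replicate 2 or 3 of the labelled double knockout (0.0666 to 0.127), with only the 2 groups fitted (0.0522) and with control-like probe sets kept (0.0509). The former difference was called with arrays centred (0.0313) and a trended robust fit (0.0259). Cyp4a12a, a male-biased fatty acid hydroxylase, was at -0.22 (adjusted p = 0.516) and -0.53 (adjusted p = 0.0799). The latter was called without replicate 1 of the labelled double knockout (-0.72, adjusted p = 0.0123), with arrays centred (0.0463) and with array weights (0.0434). Cyp51, which demethylates lanosterol in cholesterol synthesis, was at -0.43 (adjusted p = 0.357) and -0.35 (adjusted p = 0.477).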
